A study of Mus musculus with 6 samples.

Results

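The enzymes described here are 10 glycan-building genes, B3galt1, B3galt2, B3galt4, B3galt5, B3galt6, B4galnt1, St8sia1, St3gal5, Ugcg and Fut9, taken by name from the array annotation out of 22374 genes with a known symbol. The set was chosen by the array signal of B3galt5, among the genes highest in A-/G+ cells relative to A+/G+ cells, so its values are given as a description without a test. The 10 genes are covered by 13 of the 55681 probes of the array.

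The cells came from wild-type neonatal mouse cerebellum and were separated with magnetic beads into cells carrying both astroglial surface antigens, ACSA-2 and GLAST (A+/G+), and cells carrying GLAST without ACSA-2 (A-/G+). The labels name the CD1 strain and postnatal days 1 to 3 for all 6 samples, whereas the methods of the study name another wild-type background and a slightly earlier window. Cerebella of either sex were pooled, 50000 cells were taken per sample, and 3 samples of each fraction were hybridized to 1 array each. A+/G+ cells were captured on ACSA-2 beads alone, whereas A-/G+ cells were first depleted of cells bearing L1CAM, ACSA-2, CD45, PSA-NCAM and Ter119 and then captured on GLAST. The PSA-NCAM step removes cells by polysialic acid, itself a product of sialyltransferases. As both fractions are bulk samples, fewer cells of a type and less RNA per cell cannot be told apart.

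Gangliosides are sialic acid-bearing glycolipids that are abundant in brain membranes. They are built stepwise from ceramide: Ugcg adds glucose, a galactose follows, St3gal5 adds the first sialic acid to give GM3 and St8sia1 the next to give GD3, after which B4galnt1 and B3galt4 extend the chain to the complex gangliosides of neurons. Fut9 instead makes the Lewis x epitope on lactosamine chains of glycoproteins and glycolipids, a carbohydrate of neural stem cells, whereas B3galt1, B3galt2 and B3galt5 add galactose in the linkage of the Lewis a and Lewis b precursors, and B3galt6 builds the linker that joins glycosaminoglycans to proteoglycan core proteins.

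Each probe is a single oligonucleotide of 60 bases and reads only the stretch of transcript it matches. The middle 30 bases (16 to 45) are shown for the genes with the widest separation of the fractions, B3galt5, St8sia1 and B3galt6, and for both Fut9 probes with signal, which gave different results. Positions are those of the array annotation on mm9.
B3galt5, chr16:96541170-96541229, plus strand: tctgcttcagggaaatatcagaggaggaga
St8sia1, chr6:142770079-142770138, minus strand: ccttccttggagaatatttggaaacgtacc
B3galt6, chr4:155365285-155365344, minus strand: attcatctcaaaatgttacttgtcaaagtt
Fut9 probe 1, chr4:25536646-25536705, minus strand: gaacaacaattcaaggcagaagtaaatgca
Fut9 probe 2, chr4:25546977-25547036, minus strand: tagttactttaactggagaaaggattttac
Both Fut9 probes match 1 transcript and lie 10331 bases apart on it. Exon and untranslated region assignments were not made here, as no mm9 annotation was used.

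The background-corrected signal of each spot was log2 transformed and then quantile normalized, and all signals below are on this scale unless called intensities. Before normalization the A-/G+ arrays were dimmer, with a 75th percentile of the intensity between 56.6 and 251 compared with 332 to 334 for A+/G+. The A+/G+ samples shared 1 slide and the A-/G+ samples another, so slide and fraction cannot be told apart. Atp1b2, which encodes the ACSA-2 antigen, was higher in A+/G+, at 12.97, 12.70 and 12.81, than in A-/G+, at 10.86, 10.82 and 10.31. Astroglial markers were present in both fractions, with 10 of 10 detected above background on each of the 6 arrays. Their levels were not all alike, as 3 of the 10 had an adjusted p of at most 0.05 (limma). Toward A+/G+ these were Gfap (difference 3.03, A+/G+ minus A-/G+, adjusted p = 0.0182) and Aldoc (1.35, adjusted p = 0.0175). Toward A-/G+ there was 1, Aldh1l1 (-0.64, adjusted p = 0.0452). The means of 5 astroglial markers were higher in A+/G+ and those of 5 in A-/G+. The 8 markers of Bergmann and radial glia were all higher in A-/G+ at an adjusted p of at most 0.05, with a summed level (log2 of the summed linear signals) of 14.24 to 14.84 compared with 12.19 to 12.48. Of these, Mybpc1, Npy, Gria1, Gdf10 and Wif1 were named by the study from its A-/G+ gene list on the same arrays. The count of these markers is therefore no independent test. In A+/G+, 6 of 9 Purkinje cell markers (12.45 to 13.82 compared with 10.88 to 11.34), 5 of 8 ependymal markers (11.96 to 12.66 compared with 7.91 to 9.46) and 3 of 10 oligodendrocyte lineage markers (14.01 to 14.28 compared with 11.97 to 12.92) were higher by the same limit and 1 Purkinje and 1 oligodendrocyte lineage marker lower, while the Purkinje markers Calb1, Car8 and Skor2 were not well above background in A-/G+. Of the granule lineage markers, 2 of 9 (Pax6 and Zic2) were higher in A-/G+ (14.75 to 14.99 compared with 14.17 to 14.41). The granule lineage markers did not go 1 way, as 5 of 9 had higher means in A+/G+ (median difference 0.31). Their summed level rests mostly on Zic1, which did not pass the limit (adjusted p = 0.0803, limma). Of the endothelial markers 1 of 8 (Cdh5) was higher in A+/G+ by the limit (12.93 to 13.52 compared with 10.60 to 12.97). All 8 had higher means in A+/G+ (median difference 1.66). Of 10 pan-neuronal markers, 0 passed the limit, with means higher in A+/G+ for 7 and in A-/G+ for 3 (median difference 1.13). The part of these cell types in the results below was not tested.

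B3galt5, a galactosyltransferase of type 1 and globo-series chains, stood apart from the other members. Its signal was 6.52, 6.38 and 7.04 in A+/G+ replicates 1, 2 and 3 and 10.20, 10.31 and 9.56 in A-/G+ replicates 1, 2 and 3. The lowest A-/G+ value lay above the highest A+/G+ value, and all 6 spots were well above background. The means were 6.64 ± 0.35 (SD, n = 3) and 10.02 ± 0.40 (SD, n = 3), and the medians differed 12.87-fold. The separation was already present in the intensities before normalization, at 153, 135 and 219 in A+/G+ and 329, 754 and 969 in A-/G+, although the A-/G+ arrays were the dimmer ones. The member that followed by size in the same direction, St8sia1, differed 1.91-fold in the medians.

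**Figure D1:**
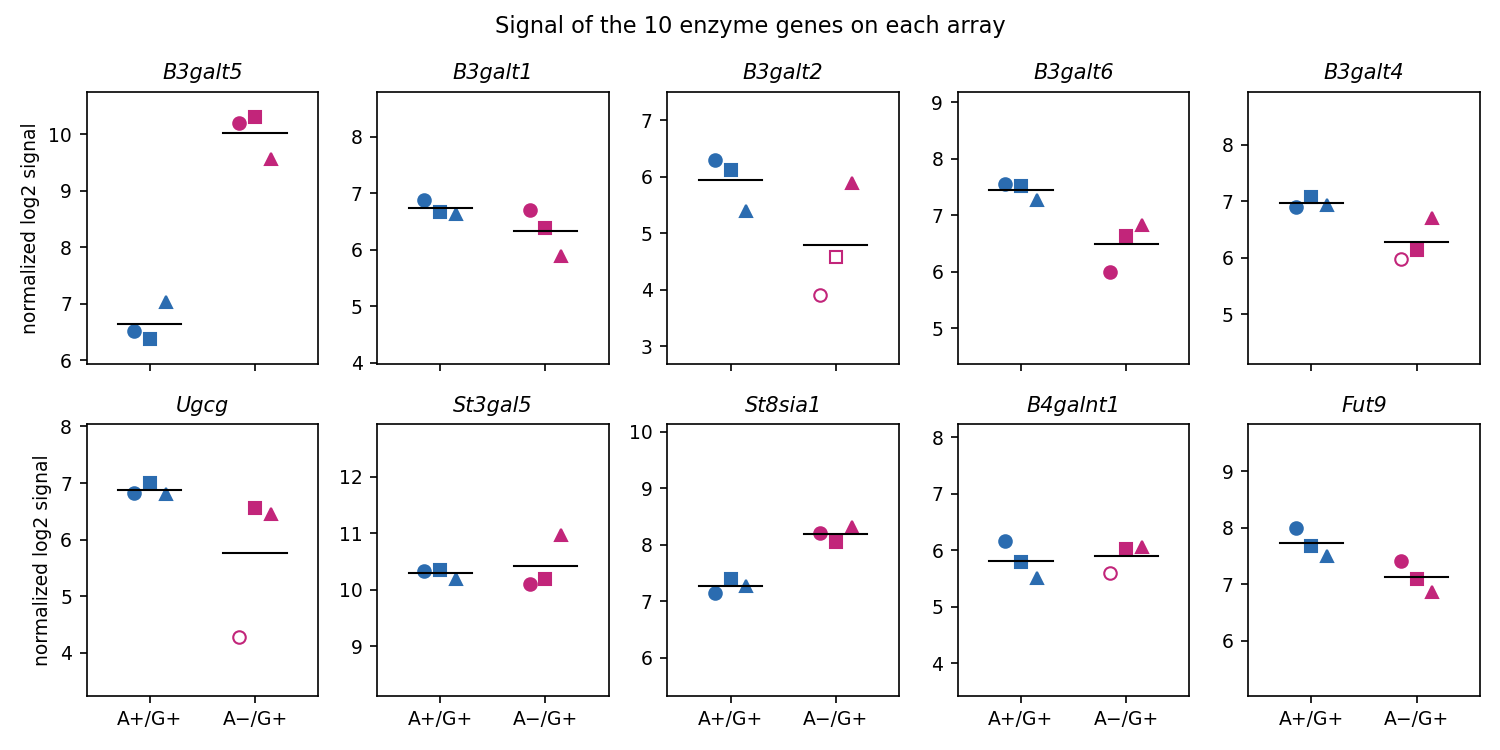
Normalized log2 signal of the brightest probe of each of the 10 genes on each array. Blue symbols are A+/G+ and magenta symbols A-/G+, with circles, squares and triangles for replicates 1, 2 and 3, open symbols for spots not well above background and lines for the means; every panel spans the same number of log2 units. B3galt5 and St8sia1 are higher on all A-/G+ arrays, B3galt4, B3galt6, Ugcg and Fut9 are higher on all A+/G+ arrays, and the other 4 genes overlap.

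Of the other genes of the family, B3galt1 and B3galt2 overlapped between the fractions and did not pass the test. B3galt1, which acts on the same kind of acceptor, gave 6.88, 6.67 and 6.64 in A+/G+ and 6.71, 6.38 and 5.90 in A-/G+. These values overlap, and the difference of 0.40 (A+/G+ minus A-/G+, 95% interval -0.18 to 0.99) had an adjusted p of 0.392 from limma with Benjamini-Hochberg adjustment over all probes. B3galt2, another enzyme of this group, gave 6.29, 6.12 and 5.40 in A+/G+ and 3.90, 4.58 and 5.89 in A-/G+. Its A-/G+ values spread widely and overlap the A+/G+ range, with replicates 1 and 2 not well above background, and the interval of the difference ran from -0.35 to 2.64 (adjusted p = 0.339, limma).

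B3galt6, the linker enzyme, gave 7.56, 7.51 and 7.27 in A+/G+ and 5.99, 6.64 and 6.82 in A-/G+. The fractions do not overlap. The means differed by 0.96 (standard error 0.24, 95% interval 0.34 to 1.59), and the adjusted p of 0.0820 (limma) missed the limit of 0.05. The call depends on the processing: the adjusted p was 0.0489 after a shift to the 75th percentile, 0.0263 with normexp background correction and 0.0351 without dim probes, and the highest over all alternatives was 0.242. The intensities were 317, 309 and 260 in A+/G+ and 20.2, 57.1 and 146 in A-/G+, in the order of the brightness of the arrays within A-/G+.

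**Figure D2:**
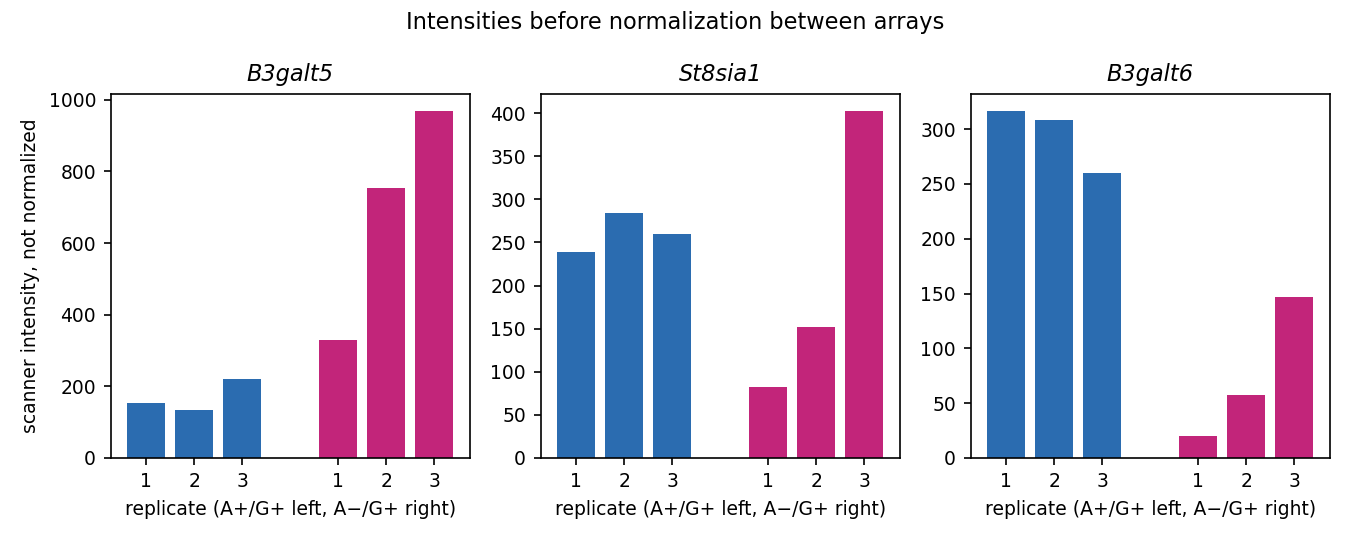
Scanner intensity after background correction and before normalization between arrays for B3galt5, St8sia1 and B3galt6, with 1 bar per array on linear axes that start at 0 and differ between panels. B3galt5 is brighter on all 3 A-/G+ arrays, whereas St8sia1 lies at 82.1, 151 and 403 there compared with 239 to 284 in A+/G+, and B3galt6 is dimmer on all 3 A-/G+ arrays.

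Of the 5 ganglioside enzymes among the members, Ugcg, St3gal5, St8sia1, B4galnt1 and B3galt4, only St8sia1 passed the adjusted p limit. St8sia1, the GD3 synthase, was higher in A-/G+, with 8.20, 8.05 and 8.31 compared with 7.15, 7.39 and 7.27 in A+/G+. The fractions do not overlap, and the replicates lie close together, at 8.19 ± 0.13 (SD, n = 3) and 7.27 ± 0.12 (SD, n = 3). The difference was -0.91 (standard error 0.10, 95% interval -1.18 to -0.65), a 1.88-fold difference of the means, with an adjusted p of 0.0129 from limma. It remained past the limit in 12 of 15 alternatives, and the adjusted p rose to 0.0527 without A+/G+ replicate 1 and to 0.0674 without A+/G+ replicate 3. The highest adjusted p, 0.0930 (limma), came with the replicate number fitted as a block. Unlike B3galt5, the intensities of St8sia1 before normalization overlap between the fractions, at 82.1, 151 and 403 in A-/G+ and 239, 284 and 259 in A+/G+, and the order of the fractions appears only after normalization. Under the shift to the 75th percentile, which moved the median difference of all named genes from -0.026 to -0.34, St8sia1 was at -0.91 with an adjusted p of 0.0489.

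The enzymes next to St8sia1 in the pathway did not pass the test. St3gal5, which makes its substrate GM3, gave 10.34, 10.36 and 10.20 in A+/G+ and 10.10, 10.20 and 10.96 in A-/G+. The fractions overlap, and the difference was -0.12 (95% interval -0.78 to 0.53, adjusted p = 0.789, limma), which turned to 0.15 without A-/G+ replicate 3. B4galnt1, the enzyme that acts on GM3 and GD3, gave 6.15, 5.78 and 5.50 in A+/G+ and 5.60, 6.03 and 6.06 in A-/G+. These overlap as well, with A-/G+ replicate 1 not well above background, and the difference of -0.08 (95% interval -0.65 to 0.49, adjusted p = 0.841, limma) turned to 0.073 without A+/G+ replicate 3.

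The first and last steps had higher means in A+/G+, without passing the limit. Ugcg, which commits ceramide to the pathway, gave 6.82, 7.0 and 6.80 in A+/G+ and 4.28, 6.56 and 6.45 in A-/G+. The low value of A-/G+ replicate 1, the dimmest array, was not well above background, and without that array the difference went from 1.11 (95% interval -0.62 to 2.84, adjusted p = 0.422, limma) to 0.37. B3galt4, which makes GM1, has 2 probes that lie 155 bases apart on its transcript. Probe 1 gave 6.90, 7.08 and 6.92 in A+/G+ and 5.98, 6.14 and 6.69 in A-/G+, and probe 2 gave 6.63, 6.92 and 6.90 and 6.51, 6.20 and 6.36. On neither probe did the fractions overlap, with A+/G+ higher by differences of 0.70 (95% interval 0.17 to 1.23, adjusted p = 0.117, limma) and 0.46 (adjusted p = 0.0961, limma). The mean of both probes passed the limit, with a difference of 0.58 and an adjusted p of 0.0489, as did probe 1 without A-/G+ replicate 3, with 0.91 and 0.0134. The probe 1 spot of A-/G+ replicate 1 was not well above background.

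Fut9, the Lewis x enzyme, depended on the probe. Probe 1, at base 11764 of the transcript, gave 8.00, 7.68 and 7.50 in A+/G+ and 7.41, 7.09 and 6.87 in A-/G+. Here all A+/G+ arrays were higher, by 0.60 in the mean (95% interval 0.10 to 1.11), with an adjusted p of 0.148 from limma. Probe 2, at base 1433 of the same transcript, gave 5.63, 5.14 and 5.65 in A+/G+ and 5.36, 6.14 and 4.86 in A-/G+, which overlap, with a difference of 0.02 (95% interval -0.93 to 0.97). Probe 3, 179399 bases away from probe 2 and assigned to another transcript, was in neither fraction well above background.

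**Figure D3:**
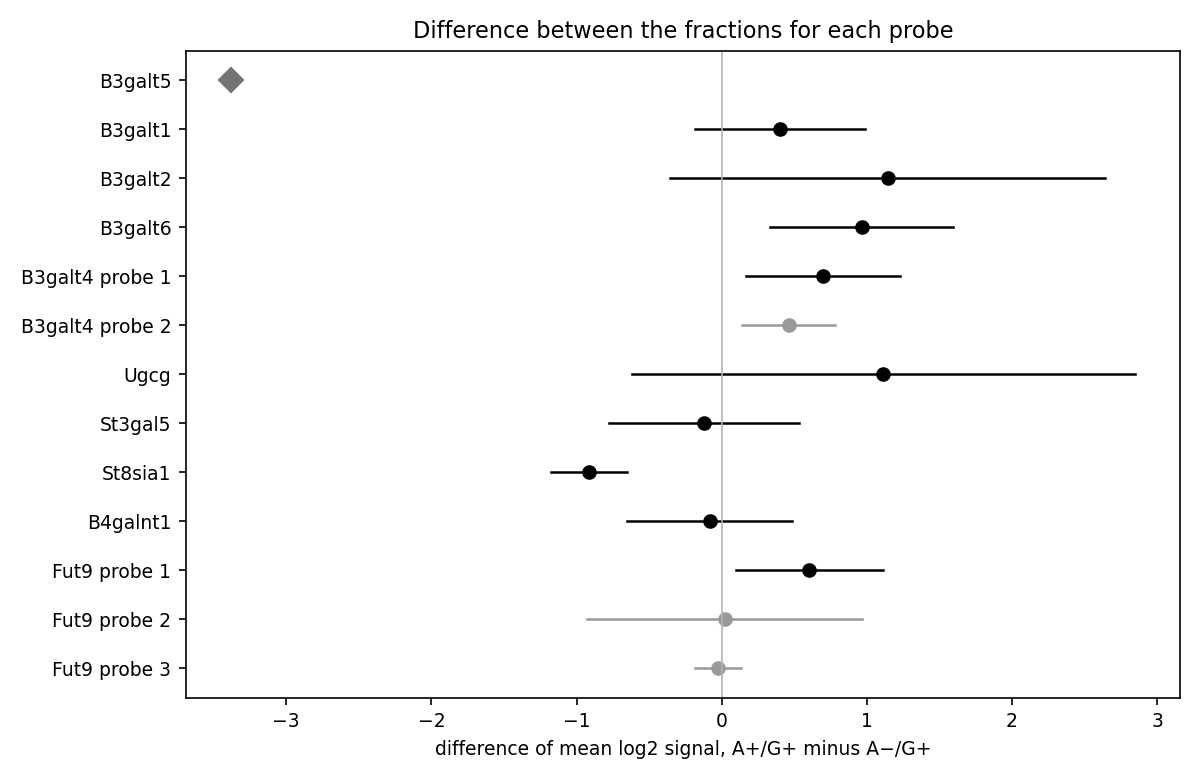
Difference of the mean log2 signal, A+/G+ minus A-/G+, for each probe of the 10 genes, with 95% intervals from limma; gray marks the further probes of B3galt4 and Fut9, and the gray diamond is B3galt5, which is shown without an interval. St8sia1 is the only tested gene whose adjusted p is at most 0.05, and B3galt5 at -3.38 lies far from all other probes.

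Counted over the 9 genes other than B3galt5, 1 was past the adjusted p limit in the direction of A-/G+, where 5.01% of all named genes were, and 0 in the direction of A+/G+, where 7.88% were. For A+/G+, limma gave 3 of the 9 genes (B3galt4, B3galt6 and Fut9) an unadjusted p under 0.05, where 17.1% of all named genes had one toward A+/G+ and 13.8% toward A-/G+, and the methods' t-test with Benjamini-Hochberg adjustment called 0. None of the 9 genes combined the adjusted p with medians 4-fold apart, a limit passed by 2.77% of named genes toward A+/G+ and 0.42% toward A-/G+. The arrays of the fractions did not overlap for 4 of the 9 genes with A+/G+ higher, compared with 20.1% of named genes. With A-/G+ higher they did not overlap for 1 of the 9, St8sia1, compared with 22.8%. The median difference of the 9 genes was 0.60, beside -0.026 for all named genes. With 3 arrays against 3, an exact permutation test of a single gene cannot go below p = 0.1 (two-sided).

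The neighboring steps of the same pathways were followed in 99 further genes of 8 lists. Of these, 15 were past the adjusted p limit with A+/G+ higher and 1 with A-/G+ higher, beside the 7.88% and 5.01% of all named genes given above. The 15 include Neu2 and Xylt1, which were too dim in A-/G+ for a direction to be secured. The counts moved with the processing, to 12 and 5 under the shift to the 75th percentile and to between 4 and 6 genes for A+/G+ and 0 for A-/G+ when 1 A+/G+ array was left out. Genes named below beyond the direct partners of the 10 enzymes, the polysialic acid genes and those past the 4-fold limit were chosen after their values were seen.

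Ganglioside breakdown held the largest count, with 6 of 14 genes called toward A+/G+, compared with 7.88% of all named genes. Gm2a, the activator protein that presents GM2 to its hydrolase, was at 8.43, 8.39 and 8.44 in A+/G+ and 6.24, 6.45 and 6.53 in A-/G+, a difference of 2.01 (standard error 0.09, adjusted p = 0.00308, limma). The fractions are far apart compared with the replicates, and the second Gm2a probe went the same way. Neu2, a sialidase, was at 4.47, 4.56 and 5.02 in A+/G+ and was not well above background in A-/G+. The bound against the lowest well-above signals there was 0.88-fold, so for Neu2 neither a fold nor a direction is secured. Arsa, the sulfatide sulfatase, differed by 1.16, Hexa, a lysosomal hydrolase gene of GM2 breakdown, by 0.53, and the saposin precursor Psap by 0.38, with adjusted p-values from 0.0116 to 0.0319 (limma). Gm2a was past the limit in 14 of 15 alternatives, Arsa in 11, Hexa in 9 and Psap in 7. Neu2 also passed in 14, but with dim A-/G+ signals that count secures no direction either.

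Of 15 other glycolipid transferases, limma called 3 higher in A+/G+ and 0 in the other direction, compared with 7.88% and 5.01% of all named genes. St6galnac5, which adds sialic acid to GM1b, was at 8.26, 8.22 and 8.00 in A+/G+ and 5.78, 6.53 and 6.36 in A-/G+ (difference 1.94, standard error 0.22, adjusted p = 0.0134, limma). Its spot on A-/G+ replicate 1 was not well above background. St8sia5, which adds further sialic acids to complex gangliosides, was at 8.54, 8.73 and 8.45 in A+/G+ and 7.06, 7.49 and 7.02 in A-/G+ (difference 1.38, standard error 0.16, adjusted p = 0.0143, limma). St3gal1, a sialyltransferase of core 1 chains and gangliosides, differed by 0.94 (adjusted p = 0.0189, limma). All 3 were opposite in direction to St8sia1 and were past the limit in 10 or 11 of 15 alternatives. The lactosylceramide synthases that feed St3gal5 did not pass the limit, with a difference of 0.15 for B4galt5 (adjusted p = 0.338) and -0.40 for B4galt6 (adjusted p = 0.324), nor did B3gnt5, which starts the lacto-series at lactosylceramide (0.44, adjusted p = 0.145, all limma).

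**Figure D4:**
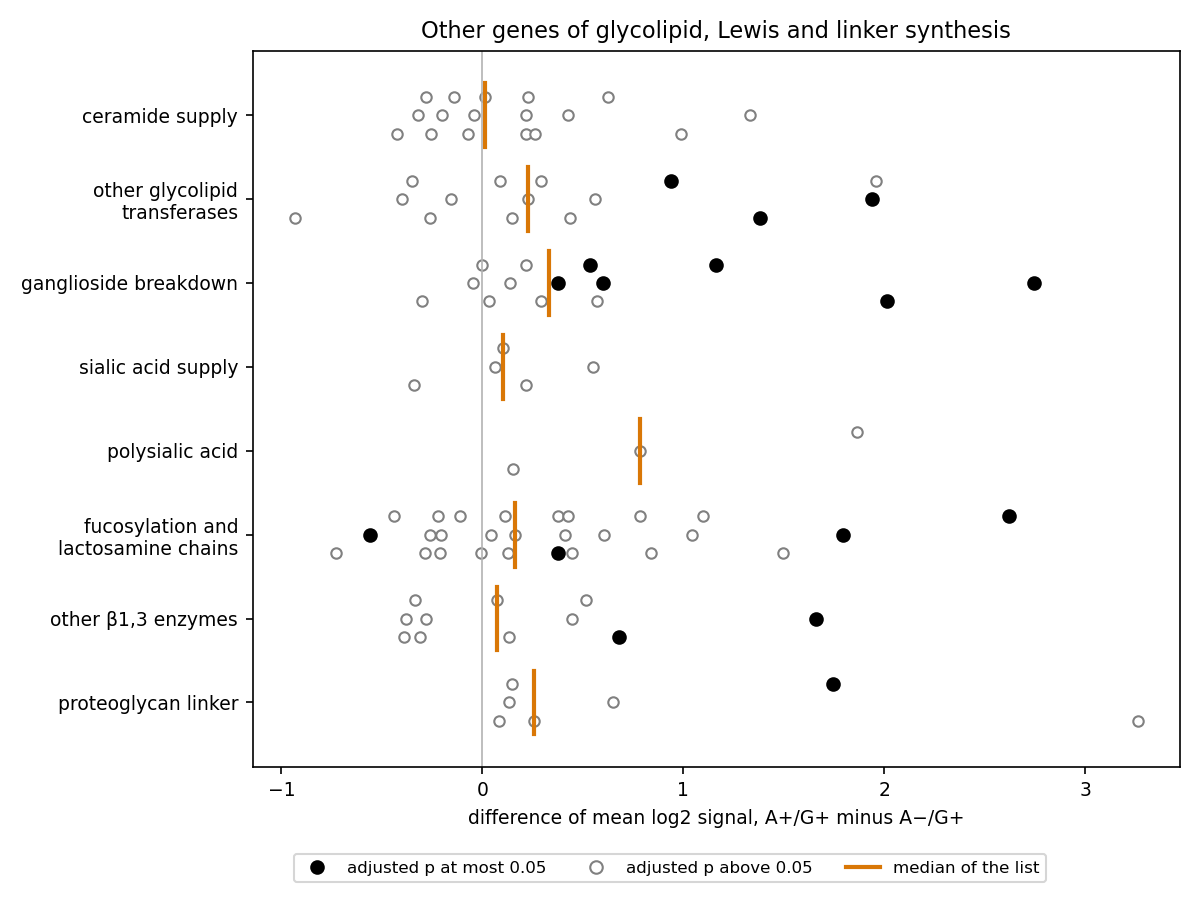
Difference of the mean log2 signal, A+/G+ minus A-/G+, for the 99 further genes in 8 lists, 1 point per gene at its brightest probe, with vertical offsets only to separate points. Filled points have an adjusted p of at most 0.05 (limma), of which 15 lie to the right and 1 to the left of 0, and orange bars are the list medians, which range from 0.01 for ceramide supply to 0.79 for the 3 polysialic acid genes.

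The supply of precursors showed no called gene. Of 17 genes of ceramide supply, limma called 0 in either direction. There, 2 genes, both toward A-/G+, had an unadjusted p under 0.05 (13.8% of all named genes). Of 5 genes of sialic acid supply limma called 0, with 0 at an unadjusted p under 0.05. Of all named genes, 7.88% were called toward A+/G+ and 5.01% toward A-/G+. In lists this short, 0 calls therefore do not set the genes apart. The methods' t-test also called 0 in both lists. For polysialic acid, the adhesion molecule modification on which A-/G+ cells were depleted, limma and the methods' t-test called 0 of 3 genes, and 2 had an unadjusted p under 0.05, both toward A+/G+ (17.1% of all named genes). Beside the same called shares, 0 of 3 does not set these genes apart either. The polysialyltransferase St8sia2 was at 7.42 on each A+/G+ array and at 6.39, 6.45 and 7.06 in A-/G+ (difference 0.79, adjusted p = 0.0813, limma). St8sia4, the other polysialyltransferase, was at 8.35, 8.03 and 8.31 in A+/G+ and 5.29, 6.06 and 7.75 in A-/G+ (difference 1.86, adjusted p = 0.177, limma). Its spot on A-/G+ replicate 1 was not well above background. Neither polysialyltransferase gene overlapped between the fractions, with A+/G+ higher, as was so for 20.1% of named genes. The brightest probe of their carrier Ncam1 differed by 0.15 (adjusted p = 0.572), whereas its other probes differed by 1.29 and 1.40 (adjusted p = 0.0380 and 0.00803, limma).

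Among 27 genes of fucosylation and lactosamine chains, limma called 3 toward A+/G+ and 1 toward A-/G+, compared with 7.88% and 5.01% of all named genes. Fut4, the other enzyme of Lewis x synthesis, was at 5.03, 5.52 and 5.32 in A+/G+ and was not well above background in A-/G+, a difference of at least 1.34-fold with an adjusted p of 0.0435 (limma). Fut4 was past the limit in 8 of 15 alternatives and in 1 of 6 with 1 array left out. The bound is taken on the mean of the lowest signals that were well above background. On A-/G+ replicate 1 that lowest signal, 5.64, lay above every A+/G+ value of Fut4, so that array can show no difference. The second Fut4 probe was in neither fraction well above background. B3gnt2, the main enzyme of lactosamine chain extension, was at 6.33, 6.61 and 6.47 in A+/G+ and 4.78, 4.41 and 4.83 in A-/G+, where 1 of 3 spots was well above background (difference 1.79, adjusted p = 0.00681, limma). B4galt4 differed by 0.38 and was past the limit in 6 of 15 alternatives. On its second probe the fractions overlapped (difference 0.13, adjusted p = 0.643, limma). Tsta3, now named Gfus, which makes the fucose donor GDP-fucose, was higher in A-/G+ by 0.56 (difference -0.56, adjusted p = 0.0178, limma). Fut10 did not pass the limit (difference -0.21, adjusted p = 0.617, limma).

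The lists closest to B3galt5 and B3galt6 held 3 called genes, all toward A+/G+, where 7.88% of all named genes were called. Of 11 other genes listed with the wider family, A+/G+ was higher for 2 and A-/G+ for 0. These were B3gnt9, by 1.66 (adjusted p = 0.0195), and the gene that the array names B3gnt1, by 0.68 (adjusted p = 0.0422, limma). They were past the limit in 9 and 7 of 15 alternatives. B3gnt1 is in the list by that older name and is now B4gat1, a glucuronyltransferase of dystroglycan glycans. Of 7 genes of the proteoglycan linker and related glucuronyl transfer, limma called 1 toward A+/G+, Xylt1, which starts the linker (adjusted p = 0.00367). Xylt1 was at 3.98, 4.20 and 3.97 in A+/G+ and not well above background in A-/G+. The bound against the lowest well-above signals there was 0.57-fold, so neither a fold nor a direction is secured. Xylt2, B4galt7 and B3gat3, the other enzymes of the linker chain itself, did not pass the limit.

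The genes nearest to B3galt5 across the 6 arrays, by the root mean square distance of the centered log2 signals among 14233 genes well above background on at least 3 arrays, were Actbl2 (0.13), Gria1 (0.15), Slco4a1 (0.15), 0610040J01Rik (0.17) and Adamts19 (0.17). None of them is a glycan-building enzyme of the lists, and Gria1, an AMPA receptor subunit, is among the Bergmann and radial glia markers. Its signal was 5.80, 5.51 and 6.32 in A+/G+ and 9.78, 9.56 and 9.03 in A-/G+. As for B3galt5, replicate 3 of each fraction lay closest to the other fraction. B3galt5 was chosen for its difference between the fractions, so genes with a similar difference come nearest by construction. Actbl2, Gria1, Slco4a1 and Adamts19 are themselves among the top A-/G+ genes that the study named from these arrays. The neighbors are therefore a description and no separate evidence on B3galt5.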

How the data were processed

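RNA of the 6 samples was amplified, labeled with Cy3 and hybridized to Agilent 8 x 60K mouse arrays. The authors deposited the scanner intensity of each spot after background correction by Agilent Feature Extraction 10.7.3.1, and a table of quantile-normalized log2 values with 38 empty cells, used as an alternative. Here the intensities were taken to log2, control spots and outlier spots were left out, quantile normalization was applied between arrays, and spots sharing a probe were averaged. Fractions were compared over 55681 probes with limma 3.58.1 in R 4.3.3 (two-sided, Benjamini-Hochberg adjustment, limit 0.05), whereas the study used Student's t-test, kept as an alternative, with medians at least 4-fold apart. A gene is represented by its brightest probe. A probe dim on all arrays of a fraction is given as a bound against the lowest signal well above background. The fit was tested on simulated data. Members and lists were chosen with earlier results of these data known. Named are all probes of the 10 genes, genes of the 8 lists past both limits, the polysialic acid genes, B4galt5, B4galt6, B3gnt5, Fut4 and Fut10, and the 5 genes nearest to B3galt5; further list genes were named after their values were seen. The number of arrays limits the precision. Symbols were updated through RefSeq (GRCm38.p6), for names only. The labels call the samples biological replicates. Nothing outside the arrays was analysed here. The values of 1 further gene in the lists are not reported here.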

Additional observations from a re-analysis of the deposited data

How the results depend on the processing

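Of 15 alternatives, 0 turned the direction of B3galt5, B3galt1, B3galt2, B3galt4, B3galt6, St8sia1, Ugcg or Fut9. B3galt5 ranged from -3.61 to -3.24 with 1 array left out and was -2.69 with normexp background correction. With 1 array left out, St3gal5 ranged from -0.28 to 0.15 (without A-/G+ replicate 3) and B4galnt1 from -0.25 to 0.073 (without A+/G+ replicate 3). The count of members other than B3galt5 past the limit toward A+/G+ was 0 as reported and 1 under the 75th percentile shift, under normexp, without dim probes (B3galt6 in these) and with the mean of all probes (B3galt4), and ran from 0 to 1 with 1 array left out. Toward A-/G+ it was 1, and 0 to 1 with 1 array left out. With the replicate number as a block (replicate block) it was 0, where St8sia1 had an adjusted p of 0.0930, and the count of the 99 further genes was 0 in both directions. These further genes numbered 15 toward A+/G+ as reported, 24 with normexp and 4 to 22 with 1 array left out, and 1 toward A-/G+ as reported, 5 under the 75th percentile shift, 2 with normexp, 2 without dim probes and 0 to 5 with 1 array left out. The cause of these shifts was not tested. With each fraction on 1 slide, the slide could not be fitted as a block. None of the 9 members other than B3galt5 passed both the adjusted p and the 4-fold limit in any of the 15 alternatives. Equal replicate numbers were not taken to pair the samples, as the deviations from the fraction means correlated at 0.088, 0.056 and 0.006. Fewer probes were well above background on the A-/G+ arrays (18336 to 24730) than on the A+/G+ arrays (26469 to 26654), which limits low signals there.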
